A study of Mus musculus with 6 samples.

Results

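The genes described are neurotensin (Nts), neurotensin receptor 2 (Ntsr2) and the 5 VPS10P receptors sortilin (Sort1), Sorl1, Sorcs1, Sorcs2 and Sorcs3. They were taken by gene symbol from a table of normalized counts, and 6 of the 7 symbols were found among its 21456 genes. Sorcs3 had no row in the table used here, nor did Ntsr1, the other G protein-coupled neurotensin receptor, and both were not analysed here. RNA came from adipose tissue of 6 mice. The 3 control mice were Ntsr2 flox/flox, and the 3 Ntsr2 AKO mice, labelled as depleted of Ntsr2, carried the same floxed alleles together with Adipoq-cre. The loxP sites lie before the first and after the last exon of Ntsr2, so that Cre removes the whole gene from cells in which the Adipoq promoter is active. Other cells of the tissue keep it. Per the study's text the tissue was WATs of mice fed a chow diet. Depot, age and sex are not given for this experiment in the sources used here. The Y-linked genes Ddx3y and Eif2s3y were at 5047 to 6975 and 3917 to 4846 normalized counts over the mice. Xist was at 0 to 29.9, so the values have the pattern of males. Replicates carry the numbers 3, 4 and 5 in each group.

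Neurotensin is a short peptide that is cut from a precursor in neurons, in endocrine cells of the gut and in lymphatic endothelial cells. NTSR1 and NTSR2 bind it at the cell surface and signal through G proteins, whereas sortilin binds it as a single-pass sorting receptor. Sortilin was also named neurotensin receptor 3, and SORL1 binds the peptide as well. VPS10P receptors share a luminal domain first described in yeast and move cargo between the trans-Golgi network, endosomes and the plasma membrane. In adipocytes sortilin is best known as a component of the vesicles that store the glucose transporter GLUT4.

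The libraries held 60405373 to 66098226 reads in control mice and 54085088 to 56268725 reads in Ntsr2 AKO mice. The 8 adipocyte markers examined (such as Adipoq and Plin1) were measured in every mouse, with summed normalized counts of 1118447 to 1649125 in control and 1449037 to 1651531 in Ntsr2 AKO mice. Skeletal muscle transcripts set some libraries apart. The 8 markers of that tissue (such as Acta1 and Ckm) summed to 2686478 in control 5, 185219 in Ntsr2 AKO 5 and 84726 in Ntsr2 AKO 4, against 371 to 1434 in control 3, control 4 and Ntsr2 AKO 3. Results are therefore also given for those 3 mice alone where this changed a direction, although Ntsr2 AKO 3 is then the only mouse of its group.

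Ntsr2, the deleted gene, was low in each of the 3 Ntsr2 AKO mice. Its normalized count, its reads scaled by 1 size factor per mouse, was 83.8, 64.0 and 153 in control mice 3, 4 and 5. These values rested on 91, 62 and 159 reads. In Ntsr2 AKO mice 3, 4 and 5 it was 3.10, 8.29 and 0, from 3, 8 and 0 reads. The groups did not overlap. For the library without a read, a rule of 3 reads gives 3.04 normalized counts, and the exact 95% interval reaches 3.73. The means were 100 ± 46.5 in control and 3.80 ± 4.19 in Ntsr2 AKO mice (SD, n = 3 each). Pooled over mice and corrected for depth, 11 reads against 312 gave 3.74% of the control level, with an exact 95% interval of 1.85 to 6.78% that covers counting error only. In such bulk tissue, fewer cells that express a gene and less RNA per cell cannot be told apart.

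The log2 fold change of Ntsr2 (Ntsr2 AKO against control, on log2 of the normalized count + 1) was -4.81 with a standard error of 0.91. With a 95% interval of -6.99 to -2.64, it ranked 3rd by size among the 16157 genes tested. It passed the threshold of 0.05 in DESeq2, the tool named by the study (adjusted p = 1.2e-04), but not in limma (adjusted p = 0.499, unadjusted p = 0.00127) nor in edgeR (adjusted p = 0.569). The exact permutation p was 0.1, the smallest that 3 against 3 mice allow. Ntsr2 was the 1 member of 6 whose groups did not overlap. Its values lay below those of every control mouse in all 3 Ntsr2 AKO mice, as did 8.16% of the genes in the limma test. Of the 5 members tested, 0 passed in limma, where 0.00619% of genes did (1 gene, Egr1), and 0 passed in edgeR, where 0% did. An unadjusted p under 0.05 was found for 1 member in limma (8.35% of genes) and 1 in edgeR (8.19%), Ntsr2 in both. DESeq2 called 1 member, against 1.38% of the genes it tested.

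**Figure D1:**
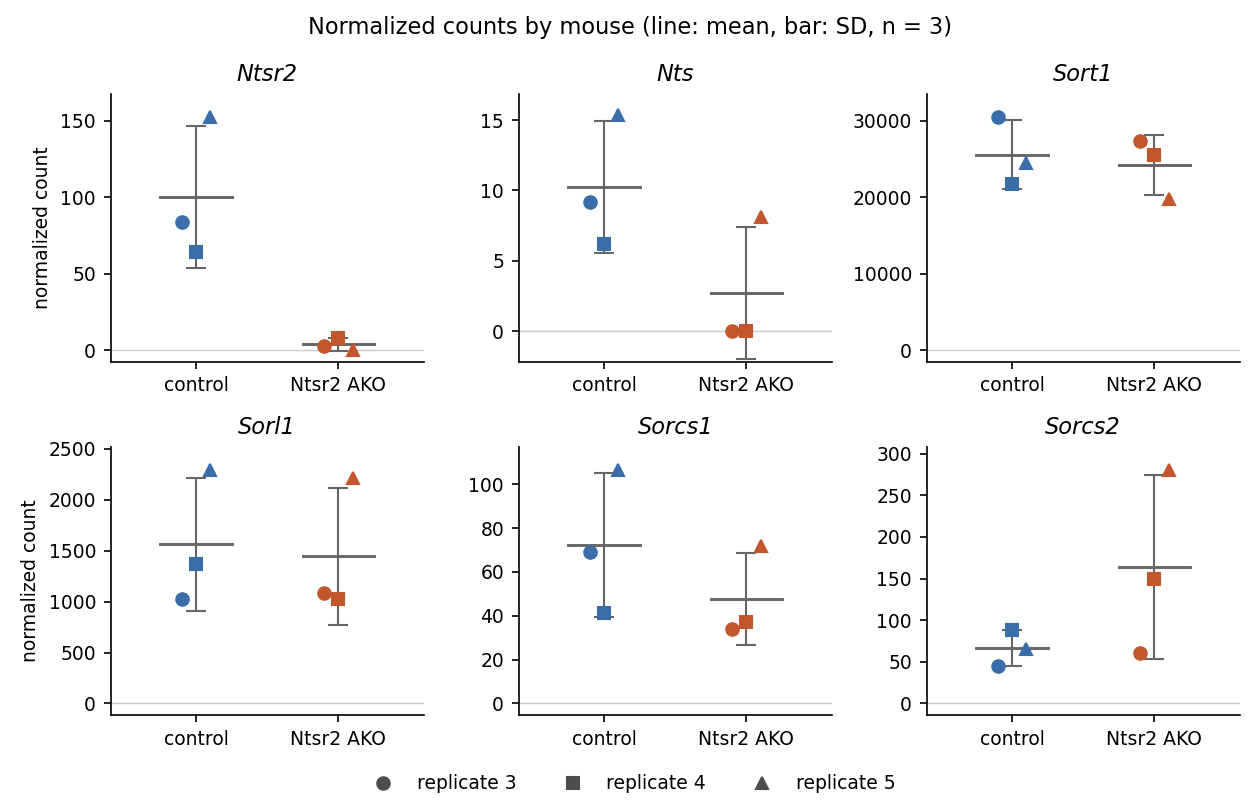
Normalized counts (vertical axes, linear) of the 6 members in each mouse, with 1 point per mouse, a line at the group mean and a bar of 1 SD (n = 3). Ntsr2 lay at 64.0 to 153 in control and at 0 to 8.29 in Ntsr2 AKO mice, whereas the groups overlapped for the other 5 genes.

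Ntsr2 lies on chromosome 12 (chr12:16653382-16660227, plus strand, GRCm38) and its GENCODE transcript Ntsr2-201 has 4 exons. The primer pair listed in the study for Ntsr2 is shown because the study measured the same gene by RT-qPCR. Capitals mark bases that differ from the best ungapped match in Ntsr2-201, and both lines are written 5′ to 3′ as the primers are.
Forward primer: tgagacaTaaAgaCgTGCgc
Reverse primer: acacggcgttgtagagAaGA
The forward primer aligned to coding sequence of exon 2 (chr12:16656814-16656833) with 6 of 20 bases differing. The reverse primer aligned to the coding part of exon 4 (chr12:16659784-16659803) with 3 of 20 differing. The matches face each other across 243 bases of the transcript. No transcript of the 55341 gene names searched held either primer exactly. A closer match than in Ntsr2 was found under 579 names for the forward primer and under 0 for the reverse primer. The reverse primer also matched Clca3b with 3 of 20 bases differing. The measurements made with these primers were not analysed here.

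Transcripts around the deleted gene were compared because the loxP sites lie next to Ntsr2. The nearest tested gene before it was Lpin1, a phosphatidate phosphatase of triglyceride synthesis, at 42.4 kb. Its normalized count was 17351, 35369 and 28443 in control mice and 30387, 32573 and 16349 in Ntsr2 AKO mice, with overlapping groups (log2 difference -0.04, limma adjusted p = 0.983). After Ntsr2, Greb1 at 10.4 kb was near background with 0 to 10.4 normalized counts and was not tested. The first tested gene on that side was the transcriptional repressor E2f6 at 151 kb, with 1961, 1416 and 3272 in control mice and 1709, 1388 and 1494 in Ntsr2 AKO mice. Those groups overlapped too (log2 fold change -0.45, limma adjusted p = 0.695). Of the 10 protein-coding neighbors examined, 5 on each side, 8 were tested and 0 had groups that did not overlap, against 15.0% of all genes tested. All 8 had log2 fold changes below 0, from -0.85 to -0.02, beside a median of -0.01 over all genes tested. None of the 8 passed in limma.

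**Figure D2:**
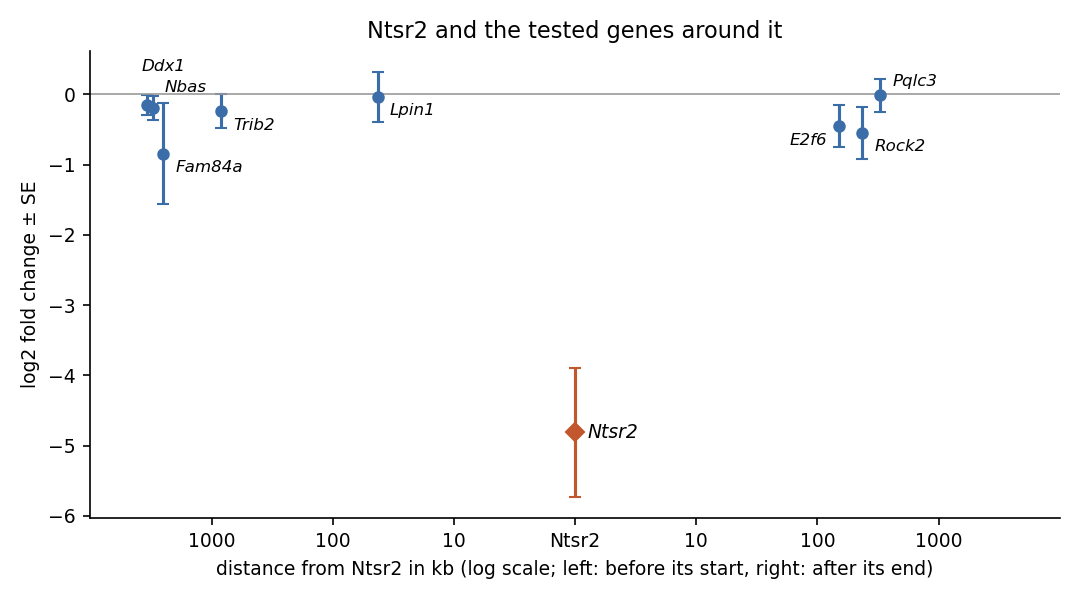
Log2 fold change (vertical axis, with standard error bars) of Ntsr2 and of the 8 tested protein-coding neighbors against their distance from Ntsr2 in kb (horizontal axis, log scale). Ntsr2 stood at -4.81, whereas Lpin1 and E2f6, the nearest tested gene on each side, stood at -0.04 and -0.45.

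Nts, the ligand, was close to the limit of detection in these fat samples. Its normalized count was 9.20, 6.19 and 15.3 in control mice, from 10, 6 and 16 reads. It was 0, 0 and 8.10 in Ntsr2 AKO mice, from 0, 0 and 8 reads. All control mice had Nts reads, and so had Ntsr2 AKO 5, whose value lay between those of control 4 and control 3, so that the groups overlapped. In the libraries without a read, the rule of 3 reads gives up to 3.11 normalized counts, and the exact 95% intervals reach 3.82. The pooled level in Ntsr2 AKO mice was 26.5% of control (8 against 32 reads, exact 95% interval 10.6 to 58.7%, counting error only). With a mean under 10 normalized counts, Nts was left out of the limma test, and the exact permutation p of its values was 0.2. Without the filter its log2 fold change was -2.35 with a limma adjusted p of 0.666.

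Lymphatic endothelial cells are a known source of the peptide, so their 7 markers were read in the same libraries. All 7 were measured and 0 of 7 had groups that did not overlap, against 15.0% of all genes tested. The summed normalized count was 3051, 2575 and 4339 in control mice and 2150, 1347 and 2512 in Ntsr2 AKO mice, so that every Ntsr2 AKO sum lay below every control sum. The single markers did not all have that direction. Lyve1 and Pdpn, the markers with the highest mean counts, had log2 fold changes of -0.65 and -0.68. Flt4, Ccl21a and Reln had -0.55, -0.82 and -0.37. Prox1, the factor that defines lymphatic identity, and Mmrn1 went the other way with 1.11 and 0.67. These last markers had the lowest mean counts of the 7. Prox1 was at 2.76, 8.25 and 26.9 normalized counts in control mice and at 22.7, 12.4 and 29.4 in Ntsr2 AKO mice. The part of these cells in the Nts values was not tested.

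Sort1 was by far the most abundant of the receptors, and its groups overlapped. Normalized counts were 30524, 21688 and 24531 in control mice and 27324, 25549 and 19805 in Ntsr2 AKO mice. The highest value was in control 3 and the lowest in Ntsr2 AKO 5, with a coefficient of variation of 17.6% in control and 16.2% in Ntsr2 AKO mice. The log2 fold change was -0.08 with a standard error of 0.19 (limma adjusted p = 0.926). Its 95% interval, -0.53 to 0.37, corresponds to a level between 0.694 and 1.29 times control. The sign turned to 0.09 in the 3 mice without skeletal muscle transcripts and to 0.00 after quantile normalization. Sort1 (chr3:108284082-108361511, plus strand) shares 338 exon bases with the antisense gene Gm12523, which was at 16.5 to 37.7 normalized counts. The library kit does not mark strand, so reads of the pair cannot be told apart there, but the antisense counts were small beside those of Sort1.

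Sorl1, a sorting receptor that also binds the amyloid precursor protein and lipoproteins, varied more between mice than between groups. Normalized counts were 1027, 1373 and 2292 in control mice and 1085, 1029 and 2217 in Ntsr2 AKO mice. The 2 high values were control 5 and Ntsr2 AKO 5, and the other 4 mice lay between 1027 and 1373. These 2 mice also had the 2 highest sums of skeletal muscle markers, and the part of that tissue in the Sorl1 values was not tested. The log2 fold change was -0.13 with a standard error of 0.39 and a 95% interval of -1.06 to 0.80 (limma adjusted p = 0.943). It was -0.23 with a skeletal muscle score as a covariate (limma adjusted p = 0.835) and -0.13 in the 3 mice without such transcripts, where Ntsr2 AKO 3 is the only Ntsr2 AKO mouse. The sign turned to 0.19 without control 5, to 0.03 without Ntsr2 AKO 3 and to 0.07 without Ntsr2 AKO 4. The gene lies at chr9:41964720-42124297 on the minus strand. Its antisense neighbor Gm16214, which shares 185 exon bases, was at 0 to 16.6 normalized counts.

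Sorcs1 and Sorcs2, receptors studied mainly in neurons, were both detected in every mouse at low levels. Sorcs1 (chr19:50143299-50678646, minus strand) was at 69.0, 41.3 and 106 normalized counts in control mice and at 34.1, 37.3 and 71.9 in Ntsr2 AKO mice. The 2 lowest values were Ntsr2 AKO mice, but Ntsr2 AKO 5 lay above control 3 and control 4, so that the groups overlapped. The log2 fold change was -0.57 with a standard error of 0.50 and a 95% interval of -1.75 to 0.61 (limma adjusted p = 0.772). It was -0.24 without control 5, -0.91 without control 4 and -0.90 without Ntsr2 AKO 5.

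Sorcs2 (chr5:36017180-36398139, minus strand) was at 45.1, 88.7 and 65.2 normalized counts in control mice. In Ntsr2 AKO mice it was at 60.9, 149 and 280. Ntsr2 AKO 4 and Ntsr2 AKO 5 stood above all control mice, whereas Ntsr2 AKO 3 lay among them. The log2 fold change was 1.09 with a standard error of 0.59 and a 95% interval of -0.31 to 2.48 (limma adjusted p = 0.643). In DESeq2 the unadjusted p was 0.0331 and the adjusted p was 0.397. An unadjusted p under 0.05 was found there for 2 members, Ntsr2 and Sorcs2, against 10.6% of all genes. Ntsr2 AKO 4 and Ntsr2 AKO 5 were also the Ntsr2 AKO mice with skeletal muscle transcripts, and the part of that tissue in the Sorcs2 values was not tested. With the skeletal muscle score as a covariate the log2 fold change was 0.98 (limma adjusted p = 0.655), and in the 3 mice without such transcripts it was -0.06. Without Ntsr2 AKO 5 it was 0.57, and without Ntsr2 AKO 3 it was 1.66 (limma adjusted p = 0.370).

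**Figure D3:**
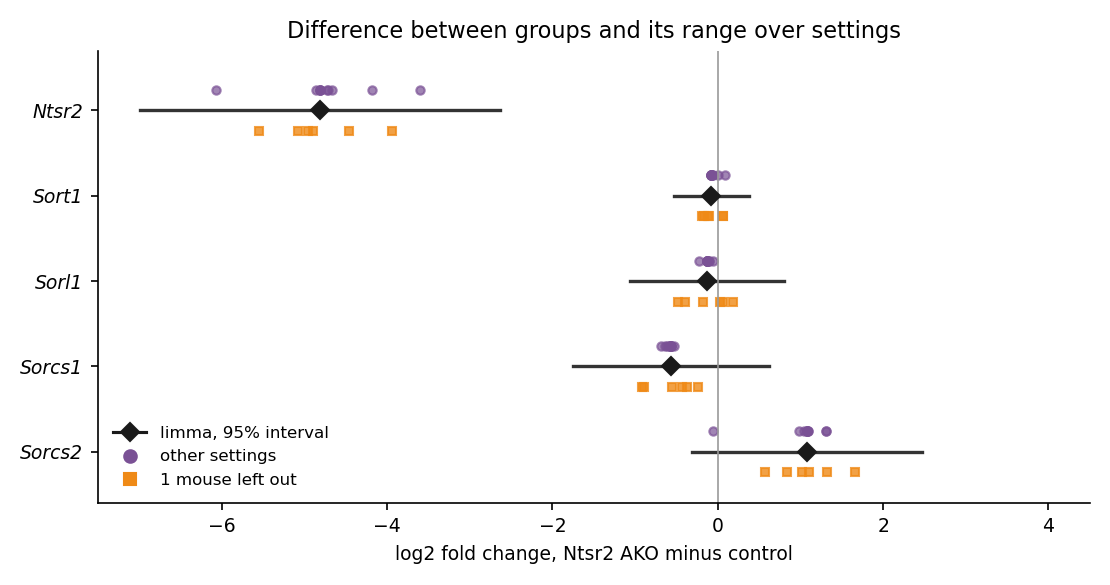
Log2 fold change of Ntsr2 AKO against control (horizontal axis) for the 5 tested members, as the limma estimate with its 95% interval, under other settings (circles) and with 1 mouse left out (squares). Ntsr2 stayed between -6.07 and -3.60 in all of them, whereas the intervals of Sort1, Sorl1, Sorcs1 and Sorcs2 include 0.

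To compare the genes with each other, normalized counts were divided by the length of the merged exons in kb. Sort1 reached 3290 ± 509 per kb (SD, n = 6), which placed it between the 95.2 and 97.1 percentiles of 19770 genes in every mouse. Sorl1 followed with 133 ± 52.6 per kb, between the 51.2 and 62.9 percentiles. In control mice Ntsr2 was at 32.1 ± 14.9 per kb (n = 3, percentiles 36.2 to 42.8), and in Ntsr2 AKO mice at 1.22 ± 1.34. Sorcs2 was at 13.1 ± 10.1 per kb, Sorcs1 at 7.11 ± 3.32 and Nts at 5.19 ± 4.71 over the 6 mice. Sort1 therefore made up 95.6% of the summed level per kb of the 4 measured VPS10P receptors in control and 95.5% in Ntsr2 AKO mice, and Sorl1 3.91% and 3.80%.

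At the top of this ranking the order was the same in every mouse, and further down it was not. Sort1 exceeded Sorl1 in 6 of 6 mice, by 13.4 to 44.5 times per kb (exact sign-flip p = 0.0312, two-sided, the smallest that 6 mice allow, adjusted p = 0.0625 over the 2 pairs tested). Sorl1 exceeded Ntsr2 in all 3 control mice, by 3.38 to 5.92 times. In control mice Ntsr2 in turn exceeded Sorcs1 in 3 of 3, by 3.28 to 4.19 times. An exact sign-flip test over 3 mice cannot go below p = 0.25, and none is given. Sorcs2 and Sorcs1 did not differ beyond their spread, with Sorcs2 higher per kb in 4 of 6 mice (exact sign-flip p = 0.188, two-sided). In control mice Sorcs1, Nts and Sorcs2 lay at 4.89 to 12.6, 4.96 to 12.3 and 5.12 to 10.1 per kb and could not be ordered. Among the control mice control 5 had the highest level of Ntsr2, Nts, Sorl1 and Sorcs1. It was also the library with the most skeletal muscle transcripts, and without it the log2 fold change of Ntsr2 was -4.46.

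**Figure D4:**
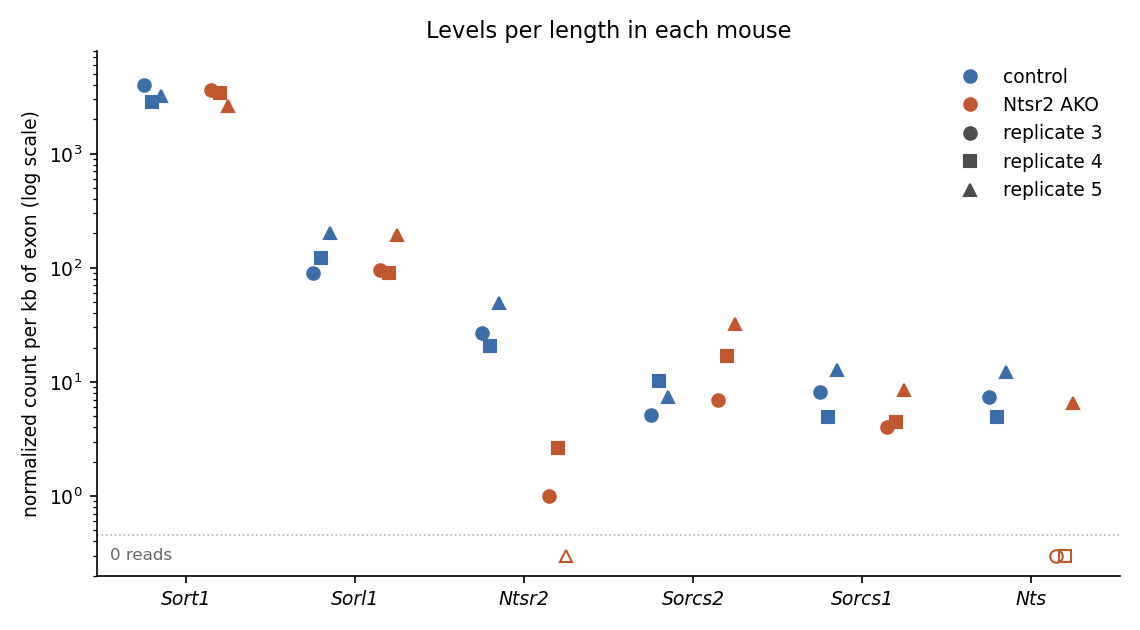
Normalized count per kb of merged exons (vertical axis, log scale) of each member in each mouse, ordered by the mean over the 6 mice. Open symbols under the dotted line are libraries with 0 reads, and the plot shows Sort1 at 2617 to 4033 per kb in every mouse, above Sorl1 at 90.7 to 202.

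The balance of sortilin to the other receptors was then taken within each mouse. Per kb, Sort1 stood at 150, 140 and 66.3 times Ntsr2 in control mice 3, 4 and 5 (mean 119 ± 45.7, n = 3). In Ntsr2 AKO mice 3 and 4 it stood at 3637 and 1270 times Ntsr2, and Ntsr2 AKO 5 gave no ratio because Ntsr2 had no read. Ntsr2 is the deleted gene, and Sort1 itself overlapped between the groups. The ratio of Sort1 to Sorl1 was 44.5, 23.6 and 16.0 in control mice and 37.7, 37.1 and 13.4 in Ntsr2 AKO mice. The lowest ratio of each group was in replicate 5 and the groups overlapped (exact permutation p = 1, two-sided). The ratio of Sorcs2 to Sorcs1 was 0.627, 2.06 and 0.587 in control mice and 1.71, 3.84 and 3.74 in Ntsr2 AKO mice. Ntsr2 AKO 3 lay below control 4, and the exact permutation p was 0.2.

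Genes that act with neurotensin and with the VPS10P receptors were read as 5 lists. With Ntsr1 they held 75 genes, 73 of which were measured and 69 tested, while Apoa5 and Ntsr1 had no row in the table used here. None of the 69 passed in limma, edgeR or DESeq2, and 6 had an unadjusted limma p under 0.05, a share near the 8.35% of all genes. The groups did not overlap for 9 genes with lower values after the deletion (13.0% of the 69, beside 8.16% of the whole table) and for 1 with higher values, beside 6.82%. The median log2 fold change of the 69 genes was -0.10, beside -0.01 over all genes.

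Enzymes that make or degrade neurotensin were represented by 7 tested genes. For 2 of the 7 the groups did not overlap, against 15.0% of all genes tested. Thop1 and Prep, peptidases that cleave neurotensin and other short peptides, were lower in each Ntsr2 AKO mouse than in any control mouse, but did not pass the test. Thop1 was at 1213, 1120 and 1382 in control and 1110, 771 and 777 normalized counts in Ntsr2 AKO mice (limma adjusted p = 0.566). Prep was at 1790, 1997 and 2233 in control and 1702, 1353 and 1252 in Ntsr2 AKO mice (limma adjusted p = 0.555). Ace, which also cuts the peptide and was the most abundant per kb, was at 4177 to 9102 and 3681 to 7110. The prohormone convertases Pcsk1 and Pcsk2 did not exceed 10.6 normalized counts in any mouse.

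Among 21 tested genes of G protein signaling downstream of neurotensin receptors, the median log2 fold change was -0.09. The groups did not overlap for 2 of the 21, against 15.0% of all genes tested. Gna13, a G protein alpha subunit, was at 3001, 2685 and 3277 in control and at 2413, 2414 and 2354 in Ntsr2 AKO mice (limma adjusted p = 0.566). Grk2, a kinase that desensitizes receptors and is listed in the table under its older symbol Adrbk1, was at 3891 to 4434 and 3316 to 3792 (limma adjusted p = 0.602). Rhoa, the most abundant per kb of the list, was at 25427 to 30291 in control and 22781 to 27288 in Ntsr2 AKO mice, and these groups overlapped.

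The sorting adaptors and retromer subunits that carry VPS10P receptors back from endosomes comprised 19 tested genes with a median of -0.07. Of the 19, only Snx3, a retromer partner and the most abundant per kb, had groups that did not overlap, against 15.0% of all genes tested. It was at 7096, 8056 and 7331 in control and at 5968, 6076 and 6131 in Ntsr2 AKO mice (log2 difference -0.30 ± 0.10 SE, limma adjusted p = 0.557).

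Of the 9 tested genes of GLUT4 storage vesicles, which sortilin helps to form in adipocytes, 2 were lower without overlap. Over all genes tested, 8.16% were lower without overlap. Lnpep, an aminopeptidase that travels with GLUT4, was at 1885, 2018 and 3128 in control and at 1693, 1492 and 1352 in Ntsr2 AKO mice (log2 difference -0.60 ± 0.21 SE, limma adjusted p = 0.566). Tbc1d4, the Akt substrate that holds the vesicles back, was at 4578 to 5437 and 3439 to 4482 (limma adjusted p = 0.575). The 1 gene of all lists that was higher without overlap was the fusion protein Stx4a, named after its values were seen, with 4553 to 5299 in control and 5506 to 5873 in Ntsr2 AKO mice (limma adjusted p = 0.643). Slc2a4, which encodes GLUT4 itself and was the most abundant per kb, was at 12683, 11185 and 14022 in control and at 11544, 11353 and 11026 in Ntsr2 AKO mice, and these groups overlapped.

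The 13 tested ligands, co-receptors and cargo proteins of VPS10P receptors had a median of -0.13. App, a cargo of SORL1, was at 21497, 15401 and 14784 in control and at 14536, 13203 and 11681 in Ntsr2 AKO mice, without overlap (limma adjusted p = 0.616). Apoe, a ligand of the family and the most abundant gene of the list per kb, was at 281880 to 354960 and 239350 to 294430.

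**Figure D5:**
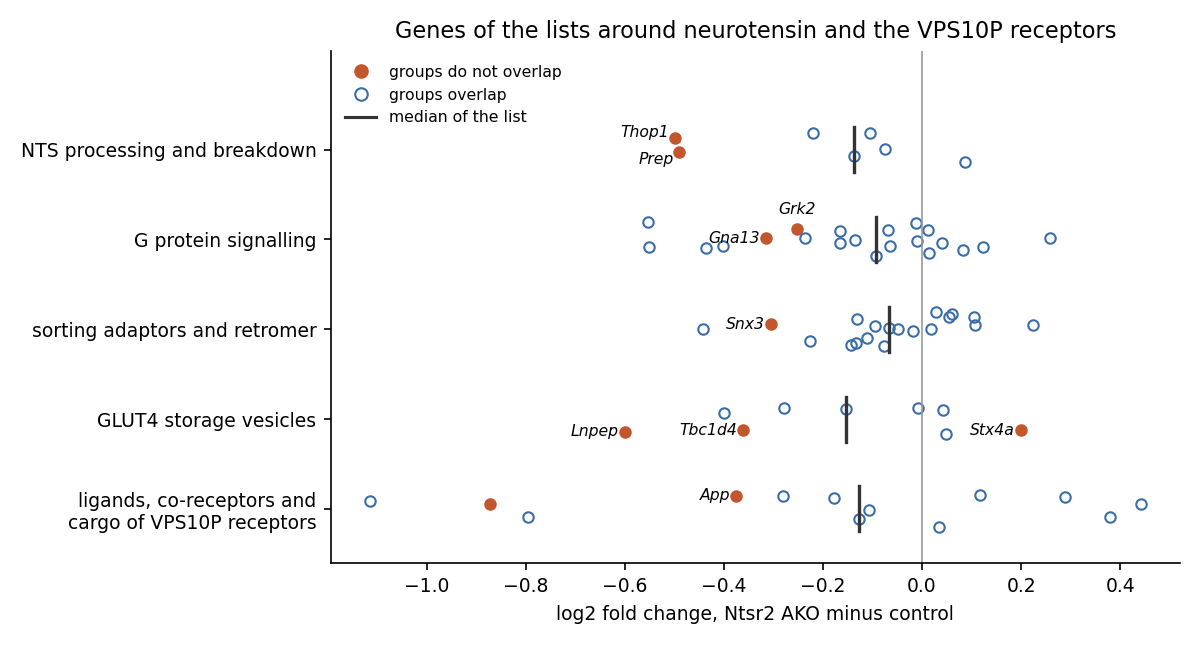
Log2 fold change of Ntsr2 AKO against control (horizontal axis) for each tested gene of the 5 lists, with a line at the median of each list. Filled points are the 10 genes whose groups did not overlap, 9 of them to the left of 0, and labels mark those named in the text.

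Genes with the most similar pattern over the 6 mice were sought by the root mean square difference of mean-centered log2 values. For Ntsr2 they were Gm14636 (0.86), Csf3 (1.07) and Tm4sf19 (1.16), all with few reads and far from its values, given that the standard deviation of Ntsr2 itself over the mice was 2.61. For Sort1 they were Macf1 (0.03), Manbal (0.04) and Arhgef18 (0.04), against a standard deviation of 0.21 of Sort1 itself. For Sorl1 they were Suv39h2 (0.04), Obsl1 (0.07) and Cd209g (0.09), against 0.50. The differences were picked from 16157 genes over 6 mice and are given as a description.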

How the data were processed

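RNA of 6 adipose samples was sequenced from poly-A libraries made with a kit that does not mark strand. The authors used Trimmomatic for trimming, HISAT2 for alignment and StringTie for quantification (build mm10 per the submitters' processing notes, annotation not given in the sources used here). The deposited values are a signal of normalized counts, that is, read counts divided by 1 size factor per mouse. Whole reads were recovered from the steps of the low values. The table holds no gene at 0 in all mice.

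Values were tested as log2(value + 1) with limma 3.58.1 in R 4.3.3 (eBayes with trend, all 6 mice, no covariate) over 16157 genes with a mean of at least 10, Benjamini-Hochberg adjusted with a threshold of 0.05. The recovered reads were tested with edgeR 4.0.16 and DESeq2 1.42.0. The limma, edgeR and DESeq2 fits were tested on simulated counts. Single values were compared by two-sided exact permutation tests. Nothing in the labels says how the 6 samples were raised or taken, so p-values measure the spread between these samples, which may be partly technical. Counting intervals (95%) are exact, and for a count of 0 they reach 3.69 reads. A rule of 3 reads for a count of 0 is given beside them. Both cover counting error only and take the recovered reads as independent counts, which was not tested.

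Lengths and positions are from GENCODE M21 (GRCm38), in which 19770 of 21456 names were found. Primers were aligned without gaps to its transcripts.

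The members, lists and tests were chosen with earlier results of these data known. Named genes were the members and, of each list, genes past the limma threshold, otherwise the 2 with the smallest p among those without overlap, with the most abundant. Of the neighbors, the nearest tested on each side was named, and of the patterns the 3 closest genes. Alternatives were pseudocounts of 0.1 and 5, filters at 0 and 50, quantile normalization, no trend, the replicate block, edgeR, DESeq2, each mouse left out and other gene lengths. A skeletal muscle covariate and the 3 mice without muscle transcripts were added after seeing the data. 1 item that this rule would name is not reported here.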

Additional observations from a re-analysis of the deposited data

How the results depend on the processing

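Over 17 alternative settings, the 6 members gave 92 values of the log2 fold change. Ntsr2 kept its direction in each of its 17, from -6.07 to -3.60, and passed the threshold in DESeq2 only (-4.72, adjusted p = 1.2e-04). Its adjusted p ranged from 1.2e-04 to 0.974. The other members passed in none. Sort1 turned to 0.0038 with quantile normalization and to 0.087 in the 3 mice without muscle transcripts, where Sorcs2 turned to -0.055. With 1 mouse left out, log2 fold changes ran from -5.55 to -3.94 for Ntsr2, -3.41 to -1.82 for Nts, -0.19 to 0.061 for Sort1 (above 0 without control 3 or Ntsr2 AKO 5), -0.48 to 0.19 for Sorl1 (above 0 without control 5, Ntsr2 AKO 3 or Ntsr2 AKO 4), -0.91 to -0.24 for Sorcs1 and 0.57 to 1.66 for Sorcs2. Such fits leave 1 group with 2 mice.

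The 1 gene called in limma was not called without a filter, without the trend, in edgeR, with the muscle covariate, or with any mouse left out (0 genes each). In the 3 mice without muscle transcripts 0 genes were called too, but that fit has 1 Ntsr2 AKO mouse, assumed to vary like the controls (smallest limma adjusted p = 0.764). DESeq2 called 219 genes. Why the tools differ was not tested. Replicate numbers occur in both groups. The deviations of same-numbered mice correlated at 0.45, -0.24 and 0.41, beside -0.52 to 0.26 for mice with different numbers. Pairs 3 and 5 thus stood highest, whereas pair 4 did not. The labels do not say that the numbers pair the mice, and the main test did not use them. Whether they mark a shared batch was not tested. With the replicate block, 0 genes were called, and the log2 fold change of Ntsr2 was -4.81 (adjusted p = 0.515).

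Of the 5 neighboring pairs in the order per kb, 4 kept their order with the longest transcript, in control mice only, and without control 3 or control 5, and 4 to 5 with 1 mouse left out. The pair that turned was Ntsr2 and Sorcs2, or in control mice Sorcs2 and Sorcs1. The ratio of Sort1 to Sorl1 averaged 28.7, or 49.5 with coding lengths and 25.6 to 31.8 with 1 mouse left out. Its log2 difference of 0.05 ran from -0.29 to 0.55. The ratio of Sort1 to Ntsr2 in control mice stayed at 103 to 145. Nts and Ntsr2 rested on 0 to 159 reads a mouse. Even so, the counting intervals of Ntsr2 in control 4 and control 5, 49.0 to 82.0 and 130 to 178 normalized counts, did not overlap. What sets the precision of each gene was not tested.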
